A study of Mus musculus with 3 samples.

Results

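The 3 receptors of the cytokines BAFF and APRIL were followed across the B cell stages of the mouse spleen: *Tnfrsf13c*, which encodes BAFF-R, *Tnfrsf13b*, which encodes TACI, and *Tnfrsf17*, which encodes BCMA. They were found by gene symbol and were 3 of the 32285 genes in the deposited tables. The study asked how a human *BCL2* gene, BCL2 being an inhibitor of apoptosis, affects B cells when driven by immunoglobulin (Ig) control elements. Single-cell libraries were made with a 3′-end kit from spleens taken 10 days after a single intraperitoneal injection of sheep red blood cells (SRBC), given to all mice, with 1 library for each of 3 genotypes of mixed B6 and 129 background: wild type (WT), 3′RR-*BCL2* and Igκ-*BCL2*. In 3′RR-*BCL2* mice a transgene inserted at random carried the BCL2 cassette under core elements of the IgH 3′ regulatory region (3′RR), and in Igκ-*BCL2* mice the same cassette replaced the Jκ segments, so that the allele lost the ability to make a κ chain. The age of these mice, and whether a library pooled animals, were not given in the sources used here. The labels call the WT cells sorted B cells and the cells of both BCL2 libraries whole tissue cells, while the study's methods describe magnetic sorting of B cells for all of them.

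BAFF and APRIL are TNF family cytokines made mainly by myeloid and stromal cells. BAFF-R binds BAFF only, recruits TRAF3 and releases the kinase NIK into the alternative NF-κB pathway, which keeps naive B cells alive. TACI binds both ligands and is known as a regulator of class switching and of T-independent responses, and BCMA binds APRIL with high affinity and sustains long-lived plasma cells. Metalloproteases and γ-secretase shed these receptors from the cell surface, so that the amount of transcript need not follow the amount of protein.

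The libraries held 11269 (WT), 7579 (3′RR-*BCL2*) and 7034 (Igκ-*BCL2*) barcodes, of which 9937, 6569 and 6254 were used, with a median of 4841 to 5293 transcripts (unique molecular identifiers, UMIs) per cell. Pairs of libraries shared 15 to 24 barcodes. Cells were clustered on 86 marker genes, without the receptors, and named by their markers. All markers were higher than in resting-like cells for the transitional-like (7 of 7), marginal zone-like (8 of 8), interferon-activated-like (9 of 9), germinal center (GC)-like (12 of 12) and dividing-like cells (9 of 9), as were 8 of 9 for MYC-high-like activated cells and 13 of 14 for plasma cell-like cells. Because the clusters were made and named from these same genes, such counts describe the stages and do not check their names. In GC-like cells 2 of 12 GC markers were at their highest among the stages, the others being highest in dividing-like cells. For resting-like cells it was 3 of 8 resting markers. *Myc* itself was higher in marginal zone-like cells than in MYC-high-like cells (355 and 305 counts per 1000000 UMIs). *Batf*, of the same list, was lower in MYC-high-like than in resting-like cells (10.7 and 16.7). The resting-like stage pooled 1 cluster named by resting markers with 9 clusters that stayed unnamed. Some of these had myeloid, erythroid, natural killer (NK) cell or heat-shock genes among their leading genes. The 3′RR-*BCL2* library had a high level of *Xist* (1689 counts per 1000000 UMIs in resting-like cells, against 0.174 and 0.189) and nearly lacked *Ddx3y* (0.0503, against 206 and 201), so that the sex of the mouse and the genotype cannot be told apart. The summed level of 9 immediate-early and heat-shock genes in resting-like cells was 3952, 6712 and 8796 counts per 1000000 UMIs in WT, 3′RR-*BCL2* and Igκ-*BCL2*, and its part in the results was not tested. Summed over 4 markers each, T cell genes were at 1.30 to 2.62, erythroid genes at 6.43 to 17.5 and myeloid genes at 244 to 288 in the resting-like cells of the 3 libraries. NK cell genes were at 1.27 to 4.31 in these cells. In plasma cell-like cells all 4 erythroid genes were at 0, T cell genes were at 0 to 4.06, NK cell genes were at 0 to 3.57, and myeloid genes were at 393 to 638, with 1 to 3 of the 4 myeloid genes at 0. Levels are counts per 1000000 UMIs (CPM) of the cells summed, with exact 95% Poisson intervals. These intervals cover counting error only: with 1 library per genotype no test between genotypes was possible.

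The genes lie on different chromosomes, and stretches next to their starts are shown because the 3 receptors had different patterns over the stages. On mm10, *Tnfrsf13c* (ENSMUSG00000068105) is at chr15:82221743-82224369 on the minus strand with up to 3 exons, *Tnfrsf13b* (ENSMUSG00000010142) at chr11:61126755-61149372 on the plus strand with up to 6 exons, and *Tnfrsf17* (ENSMUSG00000022496) at chr16:11313812-11320074 on the plus strand with 3 exons. An antisense gene, *Gm12269*, overlaps *Tnfrsf13b*, and no annotated gene overlaps the other two. Below are the last 130 bases before each start in the RefSeq table (GRCm38.p6), read 5′ to 3′ on the gene's strand, with motif matches in capitals.
*Tnfrsf13c*, chr15:82224381-82224510, minus strand: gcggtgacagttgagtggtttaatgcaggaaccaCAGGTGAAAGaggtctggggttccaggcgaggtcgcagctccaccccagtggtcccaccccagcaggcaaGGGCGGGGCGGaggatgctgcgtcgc
*Tnfrsf13b*, chr11:61126625-61126754, plus strand: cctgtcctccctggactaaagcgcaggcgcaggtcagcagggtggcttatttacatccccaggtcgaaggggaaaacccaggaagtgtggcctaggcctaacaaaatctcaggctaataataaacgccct
*Tnfrsf17*, chr16:11313679-11313808, plus strand: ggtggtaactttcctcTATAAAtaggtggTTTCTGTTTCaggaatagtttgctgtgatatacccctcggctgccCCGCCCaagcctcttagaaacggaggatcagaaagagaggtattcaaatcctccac

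Of 6 motifs searched on both strands of the 250 bases before each start, the *Tnfrsf13c* window held the E-box CAGGTG at −96 to −91, the Blimp-1 core GTGAAAG at −93 to −87, which overlaps the E-box, and a pair of overlapping GC boxes, GGGCGG, at −26 to −21 and −21 to −16. The *Tnfrsf17* window held the TATA box TATAAA at −114 to −109, and on the other strand the IRF repeat (GAAA, a further 2 bases and GAAA) at −101 to −92 and a GC box at −56 to −51. The *Tnfrsf13b* window held none of these, and the κB motif was in none of the 3. Among 32851 promoters of the same length, 17.2% held the E-box, 3.57% the Blimp-1 core, 32.7% the GC box, 12.4% the TATA box, 2.98% the IRF repeat and 3.90% the κB motif. The motifs were chosen after the windows had been seen, and a match describes letters, not a bound site.

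*Tnfrsf13c* (BAFF-R) was present at every stage, was highest in GC-like cells and was lowest in plasma cell-like cells in each library. GC-like cells held 377 CPM for WT (95% interval 337–421, 98 cells), 327 for 3′RR-*BCL2* (314–339, 1150 cells) and 327 for Igκ-*BCL2* (311–345, 632 cells). Resting-like cells held 271 for WT (265–276, 6508 cells), 239 for 3′RR-*BCL2* (233–246, 3636 cells) and 279 for Igκ-*BCL2* (272–286, 4167 cells). The intervals of the GC-like and resting-like cells did not overlap in any library. The log2 ratio of GC-like to resting-like cells was 0.48 (0.31–0.64) for WT, 0.45 (0.38–0.52) for 3′RR-*BCL2* and 0.23 (0.15–0.31) for Igκ-*BCL2*.

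**Figure D1:**
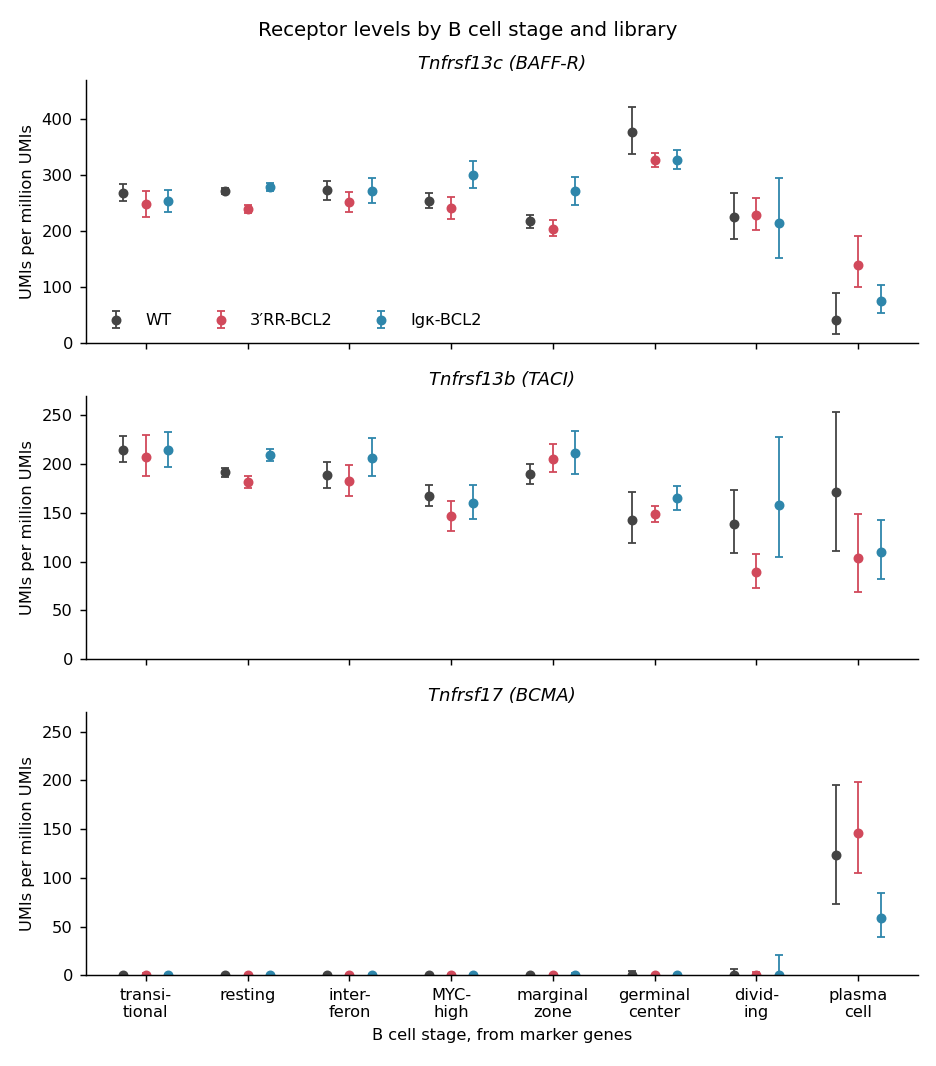
Level of *Tnfrsf13c*, *Tnfrsf13b* and *Tnfrsf17* (CPM, vertical axes) by B cell stage in the 3 libraries, with exact 95% Poisson intervals as bars. With all UMIs in the denominator, *Tnfrsf13c* peaked in the GC-like cells at 327 to 377 and *Tnfrsf13b* in the transitional-like cells at 208 to 215. *Tnfrsf17* was found almost only in the plasma cell-like cells at 58.9 to 146.

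The lead of GC-like cells in *Tnfrsf13c* over the next stage was a log2 ratio of 0.47 (0.28–0.65) in WT and 0.38 (0.26–0.50) in 3′RR-*BCL2*, in both cases over interferon-activated-like cells. In Igκ-*BCL2* the next stage was the MYC-high-like cells, and the interval of the ratio included 0 (0.13, −0.01 to 0.26). Below the top, the stages lay close together: transitional-like cells held 268, 248 and 253 CPM in WT, 3′RR-*BCL2* and Igκ-*BCL2*, interferon-activated-like cells 272, 251 and 271, MYC-high-like cells 254, 240 and 300, and dividing-like cells 224, 229 and 214. No pair of neighbors in this middle range differed beyond its counting interval in any library.

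Marginal zone-like cells, which guard the blood-borne route and depend on BAFF, held less *Tnfrsf13c* than resting-like cells in WT and 3′RR-*BCL2*. Their level was 217 (206–228) for WT, 204 (190–219) for 3′RR-*BCL2* and 271 (247–297) for Igκ-*BCL2*. The log2 ratio to resting-like cells was −0.32 (−0.40 to −0.24) in WT and −0.23 (−0.34 to −0.12) in 3′RR-*BCL2*, while in Igκ-*BCL2* its interval included 0 (−0.04, −0.18 to 0.09). Counted as UMIs per cell, with no division by the cells' UMIs, marginal zone-like cells of WT and 3′RR-*BCL2* were above resting-like cells instead (log2 0.17 and 0.29), since they held more UMIs per cell (medians of 6792 and 7038, against 4704 and 4905).

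In plasma cell-like cells *Tnfrsf13c* was at 41.2 CPM for WT (15.1–89.6, 7 cells), 139 for 3′RR-*BCL2* (99.0–190, 11 cells) and 75.2 for Igκ-*BCL2* (52.9–104, 24 cells). The log2 ratio to resting-like cells was −2.72 (−4.16 to −1.59), −0.78 (−1.28 to −0.33) and −1.89 (−2.40 to −1.43). Ig transcripts took 41.3%, 31.6% and 43.1% of the UMIs of these cells, and as CPM of the other UMIs the ratios were −1.97, −0.26 and −1.10. All these values were below 0. The 3′RR-*BCL2* value lay nearest to it on either scale, and without Ig its interval included 0 (−0.75 to 0.19). Per cell, the ratio changed its direction in both BCL2 libraries (log2 1.44 and 0.12).

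Shares of single cells were compared after each had been thinned to 2000 UMIs. A *Tnfrsf13c* UMI was found in 50% of GC-like cells for WT (exact binomial interval 39.5–60.5%), 45.3% for 3′RR-*BCL2* (42.3–48.3%) and 45.0% for Igκ-*BCL2* (41.0–49.1%). In resting-like cells the share was 39.2% (38.0–40.4%), 35.9% (34.3–37.5%) and 39.7% (38.2–41.2%). The share was higher in GC-like cells in each library, with intervals that were apart only for 3′RR-*BCL2*. Unthinned, the shares were 81.6%, 75.0% and 76.7% of GC-like cells, whose median depth was 6474 to 8054 UMIs, and 66.4%, 63.5% and 65.3% of resting-like cells. For background, 10 T cell barcodes with no B cell genes, with a median of 5405 UMIs each before thinning, held no UMI of any of the 3 receptors, which with so few barcodes allows a share of up to 30.8%. Over all 51 T cell barcodes, of which 34 also held *Cd79a*, *Tnfrsf13c* was found in 15.7% and *Tnfrsf13b* in 19.6% after thinning (median depth of 6501 UMIs).

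*Tnfrsf13b* (TACI) ran the other way in the GC. Its level in GC-like cells was 143 CPM for WT (119–171), 149 for 3′RR-*BCL2* (141–157) and 165 for Igκ-*BCL2* (153–177), against 192 (187–196), 181 (176–187) and 209 (203–215) in resting-like cells. The intervals did not overlap in any library, and the log2 ratios were −0.42 (−0.69 to −0.16), −0.29 (−0.38 to −0.19) and −0.34 (−0.46 to −0.23). In thinned cells a *Tnfrsf13b* UMI was found in 24.5%, 25% and 24.9% of GC-like cells and in 29.6%, 28.9% and 31.4% of resting-like cells (unthinned, 56.1%, 54.1% and 56.5% against 54.8%, 54.2% and 54.3%). Counted as UMIs per cell, GC-like cells held slightly more *Tnfrsf13b* than resting-like cells (log2 0.27, 0.06 and 0.14, given without intervals). The lower level is a lower part of the cells' UMIs, and the UMIs counted per cell were not fewer. Whether the cells held fewer transcripts was not tested.

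With all UMIs in the denominator, the highest *Tnfrsf13b* level of each library was in transitional-like cells, the recent arrivals from the bone marrow, with 215 CPM for WT (202–228), 208 for 3′RR-*BCL2* (187–230) and 214 for Igκ-*BCL2* (197–233). Marginal zone-like cells, which carry much TACI protein in textbook accounts, were close behind with 190, 206 and 211. Only in WT did the transitional-like cells differ from the next stage, the resting-like cells, beyond counting error (log2 ratio 0.16, 0.07–0.26). Marginal zone-like cells of 3′RR-*BCL2* were above resting-like cells (log2 0.18, 0.07–0.29), and for WT and Igκ-*BCL2* the interval of this ratio included 0. MYC-high-like cells were lower than resting-like cells in all libraries, with 168, 146 and 160 CPM and log2 ratios of −0.19 (−0.29 to −0.10), −0.31 (−0.47 to −0.16) and −0.39 (−0.55 to −0.22). Per cell the direction changed, with 1.19, 1.03 and 1.18 *Tnfrsf13b* UMIs against 1.02, 0.992 and 1.06 in resting-like cells. Here too the level is a lower part of the cells' UMIs, with no fewer UMIs counted per cell, and no intervals are given for these counts. Interferon-activated-like cells held 189, 183 and 206 and did not differ from resting-like cells beyond counting error. The dividing-like cells were at 138 (108–174), 89.0 (72.5–108) and 158 (105–228). Which stage was highest in *Tnfrsf13b* depended on the scale. Per cell, marginal zone-like cells held 1.41, 1.61 and 1.45 UMIs, against 1.27, 1.23 and 1.18 in transitional-like cells. As CPM without Ig, ribosomal and mitochondrial genes, marginal zone-like cells held 282, 309 and 308. Transitional-like cells held 303, 290 and 295 on that scale.

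Plasma cell-like cells held 172 CPM of *Tnfrsf13b* in the WT library (111–253), 104 in that of 3′RR-*BCL2* (69.3–149) and 110 in that of Igκ-*BCL2* (82.4–143). The log2 ratio to resting-like cells was −0.16 (−0.79 to 0.40), −0.81 (−1.39 to −0.28) and −0.93 (−1.34 to −0.54). As CPM of the UMIs other than Ig, the levels were 292, 151 and 193, the first of these above the transitional-like cells of WT (219), and the intervals of all 3 ratios included 0 (0.58, −0.29 and −0.14). In both BCL2 libraries the interval for *Tnfrsf13b* therefore lay below 0 only while Ig transcripts counted in the total.

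In each library, then, the amount of TACI transcript relative to BAFF-R transcript was lower in GC-like than in resting-like cells. Transcripts of different genes may be captured with different efficiency, so this ratio is read only between stages. There were 0.380 *Tnfrsf13b* UMIs per *Tnfrsf13c* UMI in GC-like cells of WT (0.305–0.470), 0.455 for 3′RR-*BCL2* (0.425–0.488) and 0.504 for Igκ-*BCL2* (0.461–0.551). Resting-like cells had 0.708 (0.686–0.731), 0.758 (0.726–0.792) and 0.749 (0.720–0.779). Since it is a ratio of 2 genes in the same cells, it does not depend on the number of UMIs or on the Ig share, and the intervals of the 2 stages were apart in all libraries. Marginal zone-like cells had 0.877, 1.01 and 0.779, transitional-like cells 0.801, 0.839 and 0.845, and MYC-high-like cells 0.660, 0.609 and 0.534.

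**Figure D2:**
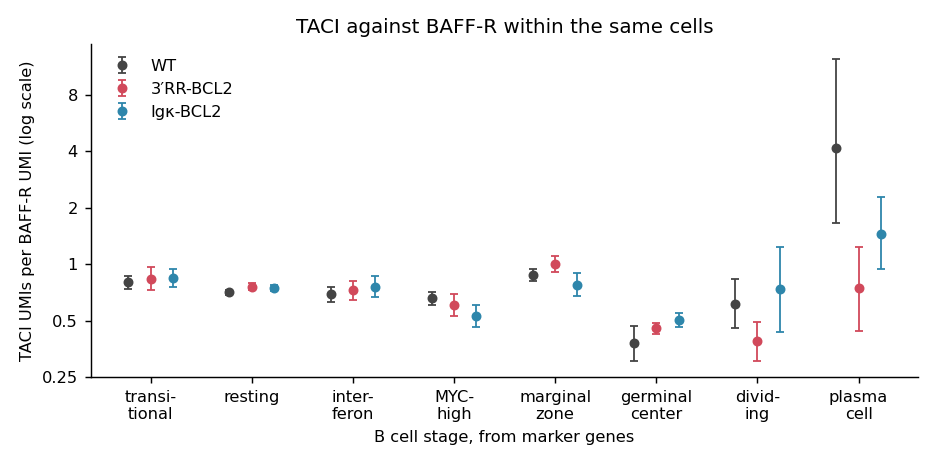
*Tnfrsf13b* UMIs per *Tnfrsf13c* UMI (vertical axis, log scale) by B cell stage in the 3 libraries, with exact 95% intervals as bars. GC-like cells lay at 0.380 to 0.504, below resting-like cells at 0.708 to 0.758, and the few plasma cell-like cells spread from 0.744 to 4.17.

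Within the GC-like cells the receptors were followed by the number of GC markers found in a cell after thinning, from 0 to between 4 and 12. *Tnfrsf13b* in WT was at 296, 171, 106 and 97.5 CPM in cells with 0, 1, 2 to 3 and at least 4 markers, but these groups held 13, 24, 36 and 20 cells. In 3′RR-*BCL2* it was at 166, 154, 146 and 132, and for Igκ-*BCL2* at 210, 155, 161 and 140. In each library the cells with no marker had the highest *Tnfrsf13b* level and those with at least 4 the lowest, and the intervals of these groups were apart in WT (201–420 and 58.7–152) and Igκ-*BCL2* (180–244 and 115–169) but overlapped in 3′RR-*BCL2* (144–190 and 115–152). *Tnfrsf13c* was at 296, 342, 412 and 406 for WT, 317, 291, 345 and 357 for 3′RR-*BCL2*, and 290, 358, 325 and 330 for Igκ-*BCL2*, so that it showed no common order, although the cells with at least 4 markers were above those with 0 in each, with intervals that overlapped.

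**Figure D3:**
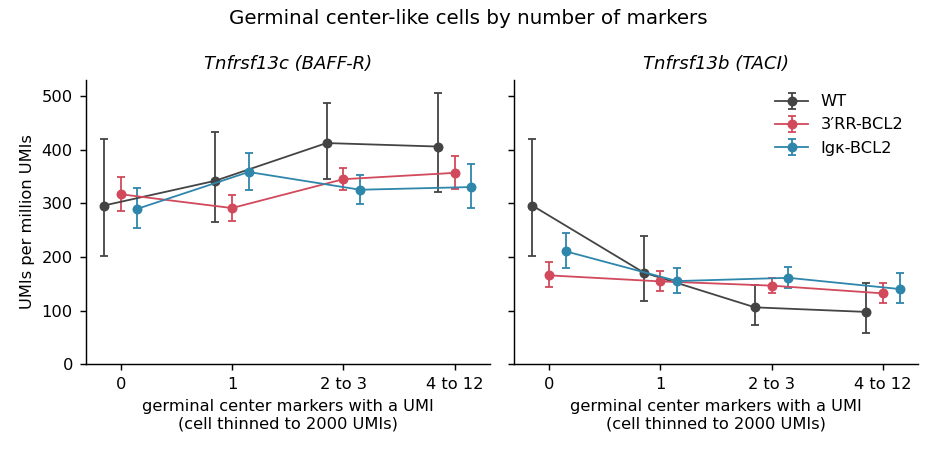
Level of *Tnfrsf13c* and *Tnfrsf13b* (CPM, vertical axes) in GC-like cells grouped by the number of GC markers with a UMI after thinning to 2000 UMIs (horizontal axes), with exact 95% Poisson intervals as bars. *Tnfrsf13b* was lowest in cells with at least 4 markers, at 97.5 to 140.

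Class switching divided the GC-like cells with no common difference in either receptor. Cells with mostly *Ighm* or *Ighd* transcripts and cells with mostly switched transcripts (at least 5 isotype UMIs) held 389 and 384 *Tnfrsf13c* CPM for WT, 324 and 331 for 3′RR-*BCL2*, and 325 and 329 for Igκ-*BCL2*. For *Tnfrsf13b* these values were 158 and 109 for WT, where only 20 switched cells were found, 142 and 158 for 3′RR-*BCL2*, and 160 and 177 for Igκ-*BCL2*. The 2 intervals overlapped in each of these pairs. Nor did the receptors mark separate cells: among thinned resting-like cells, *Tnfrsf13b* was found in 30.1% of those with and 29.8% of those without a *Tnfrsf13c* UMI.

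*Tnfrsf17* (BCMA) was confined almost entirely to the plasma cell-like cells. The libraries held 19, 42 and 35 of its UMIs, 96 in 24 barcodes, and 88 of them (91.7%) were in 17 of the 42 plasma cell-like cells. These cells had been found without the gene. Its level there was 124 CPM for WT (73.2–195), 146 for 3′RR-*BCL2* (105–199) and 58.9 for Igκ-*BCL2* (39.5–84.6). Resting-like cells held 1, 1 and 4 UMIs (0.0290, 0.0503 and 0.189 CPM). Over the libraries together the level was 95.9 in plasma cell-like and 0.0794 in resting-like cells, a log2 ratio of 10.2 (9.06–11.7). No UMI of *Tnfrsf17* was found in transitional-like, interferon-activated-like, MYC-high-like, marginal zone-like, GC-like or dividing-like cells, and for the 1880 GC-like cells the upper limit of the interval was 0.277 CPM.

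The receptor was spread unevenly over the plasma cell-like cells. In WT, 4 of 7 cells carried it, with 9, 5, 2 and 2 UMIs. In Igκ-*BCL2*, 11 of 24 cells carried it, with 1 to 5 UMIs each. In 3′RR-*BCL2* only 2 of 11 cells did, and 39 of the 41 UMIs of that library were in 1 cell, which had 34026 UMIs, 46.5% of them Ig, and *Igha* as its main isotype. Without this cell the 3′RR-*BCL2* level was 8.13 CPM, and without the highest cell of each of the others it was 85.8 for WT and 54.2 for Igκ-*BCL2*. The order of the libraries in *Tnfrsf17* therefore rests on single cells.

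The plasma cell-like cells could be divided at an Ig share of 25%, a value set after the shares had been seen, in a gap between 19.5% and 28.8%. The 23 cells above it (6 WT, 5 3′RR-*BCL2* and 12 Igκ-*BCL2*) held 87 of the 88 *Tnfrsf17* UMIs, in 16 cells, and the 19 below it (1, 6 and 12) held 1. As CPM of the UMIs other than Ig, *Tnfrsf17* was at 287 above and 3.94 below. *Tnfrsf13b* followed the same direction, with 267 against 106 (log2 ratio 1.33, 0.68–2.01), and was found in 23 of 23 cells above and 11 of 19 below. *Tnfrsf13c* was at 129 above and 169 below, with an interval of the log2 ratio that included 0 (−0.40, −1.06 to 0.26). In 3′RR-*BCL2* it was lower above than below (117 and 251), and for Igκ-*BCL2* it was higher (158 and 98.5). The 6 cells of 3′RR-*BCL2* below the divide carried 3 to 9 GC markers each at full depth, and the 5 above it carried 0 to 5, so that these ranges overlapped.

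**Figure D4:**
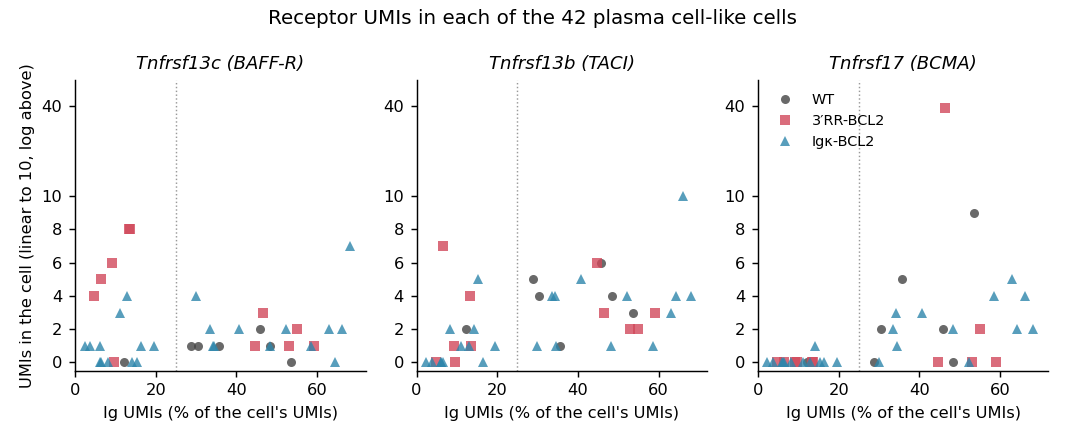
UMIs of *Tnfrsf13c*, *Tnfrsf13b* and *Tnfrsf17* in each of the 42 plasma cell-like cells (vertical axes) against the percent of the cell's UMIs from Ig genes (horizontal axes), with the library by color. *Tnfrsf17* had 87 of its 88 UMIs in the 23 cells with an Ig share of at least 25%, and 39 of them were in 1 cell of 3′RR-*BCL2*.

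Cells of all stages were also ordered by their number of plasma cell markers. The plasma cell-like cluster was made and named from these same markers, and the groups with most markers hold largely the same cells. This order therefore describes the receptors along the markers and is no separate support. With 0 to 2, 3 to 4, 5 to 6, 7 to 8, 9 to 10 and 11 to 14 markers, *Tnfrsf17* was at 0.0595, 0.0494, 0.0306, 0.101, 2.29 and 78.5 CPM. *Tnfrsf13c* stayed between 262 and 271 up to 10 markers and was at 101 in the 35 cells with at least 11. *Tnfrsf13b* was at 182 to 194 up to 6 markers and at 165, 130 and 129 above. Ig transcripts took 33.7% of the UMIs of the cells with 11 to 14 markers. As CPM of the other UMIs, *Tnfrsf13b* in them was at 194 (162–230), against 185 with 0 to 2 and 132 with 9 to 10 markers. On that scale *Tnfrsf13c* was at 153 with 11 to 14 markers, against 273 with 0 to 2. The number of markers also grows with the depth of a cell, which was not thinned here. Barcodes over the upper limits, which were left out of the stages, were counted in these groups. Plasma cell-like cells with over 20000 UMIs, which the study's upper limit would have removed, carried much of the signal: 74 *Tnfrsf17* UMIs were in 11 of these 19 cells and 14 in 6 of the 23 others. With that limit applied, no *Tnfrsf17* UMI was left in the plasma cell-like cells of 3′RR-*BCL2*.

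Between genotypes, *Tnfrsf13c* in resting-like cells was lower in 3′RR-*BCL2* than in WT by a log2 ratio of −0.18 (−0.23 to −0.13). It was lower in 10 of the 10 resting-like clusters taken singly (−0.50 to −0.11), with intervals that included 0 in some of them. The clusters are parts of the same libraries and are not replicates, so a shift of a whole library would appear in all of them. The median of all genes in this comparison was −0.07. In Igκ-*BCL2* the ratio to WT was 0.04, with an interval that reached 0. It was higher in 9 of 10 clusters, with an interval that included 0 in each. Igκ-*BCL2* stood above WT in marginal zone-like cells (0.32, 0.17–0.47) and in MYC-high-like cells (0.24, 0.10–0.37). Set against the resting-like cells of the same library, these stages differed from WT by 0.28 (0.12–0.44) and 0.19 (0.05–0.34) on the log2 scale.

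In GC-like cells *Tnfrsf13c* was lower than for WT in both BCL2 libraries, by −0.21 (−0.38 to −0.03) for 3′RR-*BCL2* and −0.20 (−0.38 to −0.02) for Igκ-*BCL2*. Set against the resting-like cells of the same library, the difference from WT was −0.03 (−0.21 to 0.15) and −0.25 (−0.43 to −0.06). The WT value came from 98 cells, and with stages set by the number of markers in place of clusters the 3′RR-*BCL2* ratio was 0.05. Plasma cell-like cells of 3′RR-*BCL2* held more *Tnfrsf13c* than those of WT (1.76, 0.51–3.29), from 39 and 6 UMIs, and the ratio was −0.15 when each library was centred before clustering. Fewer cells of a kind in a stage and less transcript in each cell cannot be told apart in these sums.

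**Figure D5:**
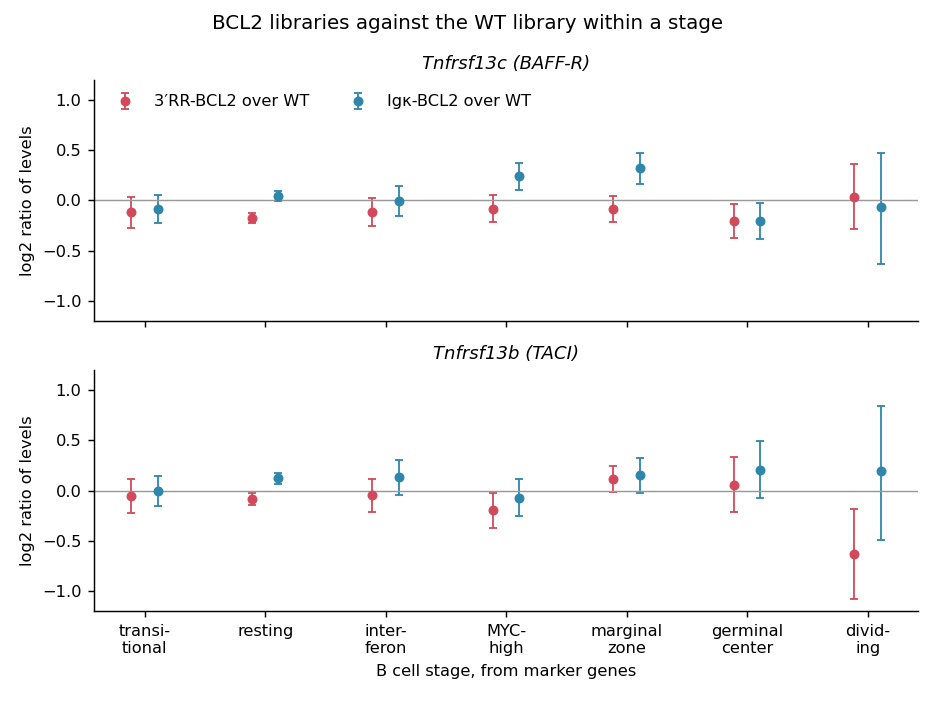
Log2 ratio of each BCL2 library to WT (vertical axes) for *Tnfrsf13c* and *Tnfrsf13b* by stage, with exact 95% intervals as bars. *Tnfrsf13c* in Igκ-*BCL2* lay above WT in marginal zone-like cells (0.32) and below it in GC-like cells (−0.20).

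*Tnfrsf13b* in resting-like cells differed from WT by −0.08 (−0.14 to −0.02) for 3′RR-*BCL2* and 0.12 (0.07–0.18) for Igκ-*BCL2*. It was lower in 8 of 10 and higher in 7 of 10 clusters, which again are not replicates, and most of their intervals included 0. In the 1 cluster named by resting markers the 3′RR-*BCL2* ratio was −0.00065, so that this difference was not seen there. In GC-like cells the ratios were 0.06 (−0.22 to 0.34) and 0.20 (−0.08 to 0.50), and a difference from WT was not detectable at this depth. The widest gap outside the plasma cells was in dividing-like cells, where 3′RR-*BCL2* was lower by −0.63 (−1.08 to −0.18), from 101 UMIs in 112 cells against 74 in 55. The upper limits on genes and UMIs had taken 55 of 110 WT and 63 of 175 3′RR-*BCL2* cells from the dividing cluster. With these cells kept the ratio was −0.67 (−0.89 to −0.45), and with stages set by marker numbers its interval included 0 (−0.52, −1.12 to 0.10). A share of 12% of thinned dividing-like cells held a *Tnfrsf13b* UMI in 3′RR-*BCL2* (6.57–19.7%) and 24.5% in WT (13.8–38.3%).

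The ligands were nearly absent from these cells. *Tnfsf13b* (BAFF) had 20 UMIs in all resting-like cells (0.265 CPM) and 9 in GC-like cells (0.675), and *Tnfsf13* (APRIL) had 12 in resting-like cells (0.159) and none in GC-like cells. Neither was found in plasma cell-like cells. In 12 barcodes with C1q genes, left out of the stages, *Tnfsf13* had 5 UMIs in 2 barcodes (56.0 CPM), 4 of them in 1 barcode of 3′RR-*BCL2*. All 12 barcodes also held the B cell gene *Cd79a* (232 UMIs, 2599 CPM), with *Lyz2* at 33.6 CPM.

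The pathway around the receptors was described by a list of 37 genes: ligands, adaptors and kinases, NF-κB subunits, shedding proteases, survival genes and related TNF receptors. A gene was counted as higher or lower from a 1.5-fold ratio in CPM of the UMIs other than Ig, where it had at least 20 UMIs in either group. In 3′RR-*BCL2* against WT, none of 33 measured list genes was higher and 1 was lower in resting-like cells, beside 3.07% and 4.79% of all genes measured. In Igκ-*BCL2* against WT, 2 were higher and 2 lower, beside 7.33% and 4.79%. The lower ones were *Nfkb2*, the subunit processed by the alternative pathway (48.5 against 83.4 CPM, log2 −0.78), and *Bcl2a1b*, a survival gene of the BCL2 family (41.1 against 79.2, −0.95). The higher ones were the death receptor *Fas* (0.74) and the survival gene *Bcl2l1* (0.79), at 10.0 and 3.51 CPM.

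In GC-like against resting-like cells 4 list genes were higher and 6 lower for WT (19.2% and 26.8% of all genes), 3 and 4 for 3′RR-*BCL2* (12.8% and 14.8%), and 5 and 4 for Igκ-*BCL2* (12.3% and 16.2%). *Fas*, a marker of the GC used to name these cells, was higher by 3.89, 3.55 and 3.38. *Traf1*, an adaptor induced by NF-κB, was higher in each library (1.11, 0.73 and 1.16). *Birc3*, which encodes the ubiquitin ligase cIAP2 of the TRAF complexes, was lower in each (−1.31, −0.78 and −0.68), as were *Ikbkb*, the IKKβ kinase (−0.92, −0.74 and −0.66), and the receptor *Cd27* (−2.18, −1.51 and −0.90). Between genotypes, GC-like cells of 3′RR-*BCL2* had 5 list genes higher and 1 lower than WT (13.1% and 11.3% of all genes) and those of Igκ-*BCL2* had 4 and 4 (15.7% and 10.2%). The adaptor *Traf5* was higher (0.69 and 0.60) and *Bcl2a1b* lower (−0.91 and −0.73) in both, and *Cd40* was lower in Igκ-*BCL2* (−0.68).

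In plasma cell-like against resting-like cells 5 list genes were higher and 18 lower for WT (19.9% and 57.9% of all genes), 5 and 16 for 3′RR-*BCL2* (21.4% and 46.9%), and 4 and 13 for Igκ-*BCL2* (19% and 45.5%). *Pim2*, a survival kinase, was higher in each library (1.69, 1.97 and 1.89), from 4, 13 and 15 UMIs. *Traf5* was lower in each (−3.38, −3.47 and −2.07), as were *Ikbkb* (−2.90, −1.67 and −1.59) and *Cd40* (−2.87, −0.97 and −2.00). The shares of list genes in each direction lay near those of all genes in most of these comparisons, and nothing particular to the list is read from them.

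Over the 20 combinations of stage and library with at least 30 cells, the genes whose levels were most like those of *Tnfrsf13c* were *Irf5* (Pearson's r 0.83), *Trio* (0.81), *Wdr82* (0.79), *Zfp512b* (0.79) and *Hdac9* (0.78). For *Tnfrsf13b* they were *Map3k1* (0.95), *Ncf1* (0.94), *Klf13* (0.94), *Hhex* (0.94) and *Gm16152* (0.94). These were the nearest of 9423 genes, and points from the same library share its depth and handling. The plasma cell-like cells were too few to be among the points, and *Tnfrsf17*, with 6 UMIs in them, was given no neighbors.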

How the data were processed

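The authors aligned 10x 3′-end reads and counted UMIs per gene and barcode with Cell Ranger 6.1.1 on mm10, per the submitters' processing notes, which also name hg38; the deposited values are raw counts, used as deposited. Human *BCL2* was not analysed here. The 3 receptors and all gene lists were chosen with earlier results of these data known.

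Barcodes with at least 800 genes, at most 8% mitochondrial UMIs (of all UMIs) and at least 10% ribosomal protein UMIs (of UMIs other than Ig) were kept. Barcodes in which Cd3 or C1q genes had 2 or more UMIs were left out (25, 20 and 18). Those over 4500 genes or 20000 UMIs outside the plasma cell-like stage (105, 123 and 46) were left out of the stages. Scrublet scores called 0, 2 and 0 doublets under its own threshold, which is too few to have worked, so doublets were not removed beyond these limits. Cells were clustered on log-normalized marker genes without Ig or the receptors (scanpy 1.11.5, 20 principal components, 30 neighbors, Leiden resolution 1, igraph 0.11.9), which gave 17 clusters. A cluster was named by at least 3 markers of 1 list among its 10 leading genes by fold. A first run with 15 neighbors and resolution 2 put plasma cells with other cells and is given as an alternative. The main setting was thus chosen after that outcome had been seen, and the plasma cell-like values rest on it. Counts were summed per stage and library and given as CPM (counts per 1000000 UMIs), with exact Poisson intervals, exact intervals for the ratio of 2 such counts and exact binomial (Clopper-Pearson) intervals for shares (scipy 1.17.1). The named genes were the 3 receptors, and from the pathway list the ligands and genes past 1.5-fold. Because they are 1 library per genotype, replicate spread is unknown. The library totals were 62777659, 45539172 and 37433924 UMIs. Alternatives were other stage calls, denominators, cell limits and thinning depths. The calculations were tested on simulated data.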

Additional observations from a re-analysis of the deposited data

Results flagged for a closer look

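Barcodes outside the plasma cell-like stage with over 4500 genes or 20000 UMIs entered no stage in the main setting, yet held *Tnfrsf13c* and *Tnfrsf13b*. They were counted in the groups by number of plasma cell markers and in the alternatives without upper limits. Such barcodes numbered 105 for WT, 123 for 3′RR-*BCL2* and 46 for Igκ-*BCL2*. *Tnfrsf13c* was at 238, 245 and 249 CPM in WT, 3′RR-*BCL2* and Igκ-*BCL2*. *Tnfrsf13b* was at 178, 131 and 167. *Tnfrsf17* was found in 0 of 105, 0 of 123 and 0 of 46 of them. By their clusters 137 of these 274 barcodes were dividing-like and 43 GC-like, and over all of them *Mki67* was at 532 CPM, against 3.44 in resting-like cells, and *Basp1* at 236, against 5.11.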

How the results depend on the processing

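No paired analysis was possible because each genotype had 1 library and the groups share a single replicate number. Of 605 values under alternatives, 511 lay within the counting interval of the reported value, 78 moved further and 16 changed direction; the cause was not tested. Values below are log2 ratios in the order WT, 3′RR-*BCL2* and Igκ-*BCL2* unless said. Counted as mean UMIs per cell, *Tnfrsf13c* in GC-like over resting-like cells was 1.17, 0.80 and 0.71, and in plasma cell-like over resting-like cells −0.75, 1.44 and 0.12. On that scale *Tnfrsf13b* was 0.27, 0.063 and 0.14 in GC-like and 1.81, 1.41 and 1.09 in plasma cell-like over resting-like cells, *Tnfrsf13c* in marginal zone-like over resting-like cells was 0.17 in WT and 0.29 in 3′RR-*BCL2*, and in resting-like cells of Igκ-*BCL2* over WT *Tnfrsf13c* was −0.023 and *Tnfrsf13b* 0.057. *Tnfrsf17* in plasma cell-like cells was 2.57, 3.73 and 1.21 UMIs per cell. With stages set by marker numbers, *Tnfrsf13c* was 0.60 in GC-like over resting-like cells of 3′RR-*BCL2*, −1.35 (WT) and −1.2 (Igκ-*BCL2*) in plasma cell-like over resting-like cells, −0.095 (3′RR-*BCL2*) and 0.11 (Igκ-*BCL2*) against WT in resting-like cells, 0.12 in transitional-like over resting-like cells of Igκ-*BCL2* and 0.048 in GC-like cells of 3′RR-*BCL2* over WT. With each library centred before clustering, the plasma cell-like cluster took in 250 cells: *Tnfrsf13c* over resting-like cells was −0.48 (WT) and −0.76 (Igκ-*BCL2*), *Tnfrsf13b* −0.13 (Igκ-*BCL2*), *Tnfrsf13c* in plasma cell-like cells of 3′RR-*BCL2* over WT −0.15, and *Tnfrsf17* was at 26.6, 59.1 and 29.8 CPM. The run with 15 neighbors and resolution 2 came first, and the main setting was chosen after its outcome had been seen. In that first run the plasma cell-like cluster took in 434 cells: *Tnfrsf13c* over resting-like cells was −0.34, −0.28 and −0.55, *Tnfrsf13b* −0.22 (3′RR-*BCL2*) and −0.13 (Igκ-*BCL2*), and *Tnfrsf17* was at 19.0, 41.1 and 19.0 CPM. There *Tnfrsf13c* in plasma cell-like cells of 3′RR-*BCL2* over WT was −0.11, and in transitional-like over resting-like cells *Tnfrsf13c* was 0.0019 (Igκ-*BCL2*) and *Tnfrsf13b* −0.051 (3′RR-*BCL2*). The next 4 settings were also chosen after seeing the data. As CPM without Ig, *Tnfrsf13c* in plasma cell-like over resting-like cells was −0.26 (3′RR-*BCL2*) and −1.10 (Igκ-*BCL2*), *Tnfrsf13b* 0.58 (WT) and −0.14 (Igκ-*BCL2*), and *Tnfrsf17* was at 210, 214 and 104. In plasma cells with at least 25% Ig of 3′RR-*BCL2*, *Tnfrsf13c* was −2.10 and *Tnfrsf17* at 286; without the cell highest in *Tnfrsf17* the latter was at 8.13. Against the resting cluster named by markers, *Tnfrsf13b* in 3′RR-*BCL2* was −0.39 in GC-like cells, and in that cluster −0.00065 over WT. As CPM without Ig, ribosomal and mitochondrial genes, *Tnfrsf13c* in plasma cell-like over resting-like cells was −0.27 (3′RR-*BCL2*) and −1.18 (Igκ-*BCL2*), *Tnfrsf13b* 0.47 (WT) and −0.22 (Igκ-*BCL2*), and *Tnfrsf17* was at 271, 295 and 135. With the study's upper limits for all stages, *Tnfrsf13c* was −0.31 (3′RR-*BCL2*), *Tnfrsf13b* 0.62 (WT) and 0.31 (3′RR-*BCL2*), and *Tnfrsf17* was at 0 in 3′RR-*BCL2*. The share of GC-like minus resting-like cells of 3′RR-*BCL2* with *Tnfrsf13c* was 3.64 percentage points at 1000 UMIs, and that with *Tnfrsf13b* was −7.68 in 3′RR-*BCL2* at 4000 and −0.40 in Igκ-*BCL2* at 1000 UMIs. Depth limits, among others, the 98 WT GC-like, the 18 Igκ-*BCL2* dividing-like and the 42 plasma cell-like cells.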

Other observations

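B-1- or memory-like cells formed no cluster of their own and were picked by at least 3 of their markers, which gave 32 cells for WT, 21 for 3′RR-*BCL2* and 25 for Igκ-*BCL2*. *Tnfrsf13c* was at 277, 157 and 298 CPM in them and *Tnfrsf13b* at 214, 178 and 209, while no UMI of *Tnfrsf17* was found. Against resting-like cells picked by marker numbers in the same way, *Tnfrsf13c* in 3′RR-*BCL2* was lower (log2 ratio −0.62, −1.2 to −0.10), and the intervals of the other ratios of these 2 receptors included 0.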
